A study of Mus musculus with 3 samples.

Results

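The miR-29 family was followed through 3 small-RNA libraries, of B16 cells, of exosomes released by B16 cells and of exosomes released by JB6 cells. The members were chosen by name, from the read counts per mature miRNA: miR-29a-3p, miR-29b-3p, miR-29c-3p and miR-29b-1-5p, which are 4 of the 1915 mature miRNAs in each count table. B16 is a mouse melanoma line, labelled as skin of strain C57BL/6J with melanoma as its disease state. JB6 is a mouse skin line, labelled as strain BALB/c and as normal. Exosomes are small vesicles shed into the medium, here collected by ultracentrifugation, and no treatment or time is labelled for any group. Each group held 1 library from 1 established line and no library of JB6 cells was analysed here, so differences are between single libraries without replication, and each interval printed is an exact 95% interval for counting error alone.

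miRNAs are short RNAs that guide Argonaute proteins to messenger RNAs, mainly through the seed, the bases from position 2 to position 8. The miR-29 family is known as a brake on extracellular matrix, since its targets include many collagens and elastin, and on DNA methylation through the methyltransferases Dnmt3a and Dnmt3b. It also acts on the survival factor Mcl1, and it is often low in fibrosis and in tumours. The 3 guide strands share a seed, but miR-29b is known for a hexamer at its end that directs it to the nucleus and for fast decay in dividing cells. miR-29b-1-5p is the opposite strand of 1 of the hairpins that give miR-29b, and such passenger strands are mostly degraded after processing.

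The mature sequences, from RefSeq on GRCm38.p6, show what the members share and where they part. They are written 5′ to 3′ with the seed in capitals.
miR-29a-3p: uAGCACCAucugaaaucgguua
miR-29b-3p: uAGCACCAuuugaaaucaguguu
miR-29c-3p: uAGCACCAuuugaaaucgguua
miR-29b-1-5p: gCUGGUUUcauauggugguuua
The 3p strands carried the seed AGCACCA, and no other of the 1623 miRNAs of the tables that matched a RefSeq sequence had it. Counted from the 5′ end, miR-29a-3p and miR-29c-3p differed over their 22 bases by 1 substitution, C10U. miR-29b-3p and miR-29c-3p were identical over their first 17 bases and then differed by A18G, G21U and U22A over the 22 positions compared. The seed of miR-29b-1-5p, CUGGUUU, is unrelated. The sources used here do not state how a read with a mismatch was counted, so the split of reads between miR-29a-3p and miR-29c-3p is uncertain.

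The hexamer AGUGUU stood at positions 18 to 23 of miR-29b-3p, shown here alone in capitals.
miR-29b-3p: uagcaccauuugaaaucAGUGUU
It was searched in the mature sequences as written, on the RNA strand only. The hexamer occurred in 12 of the 1623 sequences (0.739%), ended 2 of them and was found in no other arm of the miR-29 hairpins. GGAG and CCCU, short motifs known from sorting into vesicles, occurred in 14.2% and 11.6% of the sequences and in none of the 7 arms of the family. A match is a description of the letters only.

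The 4 hairpins lie in 2 pairs. On chromosome 6, minus strand, Mir29a (chr6:31062660-31062747) and Mir29b-1 (chr6:31063023-31063093) are 275 bases apart. In GENCODE M21 Mir29b-1 overlaps an exon of the long non-coding RNA gene Gm27019, Mir29a overlaps no other gene, and the nearest protein-coding gene is Klf14. On chromosome 1, plus strand, Mir29b-2 (chr1:195037040-195037120) and Mir29c (chr1:195037547-195037634) are 426 bases apart. Both overlap an exon of the non-coding transcript A330023F24Rik on their own strand and an exon of Cd46 on the other. miR-29b-3p has the same sequence in both of its hairpins, so its reads cannot be assigned to a chromosome, while the 5p arms can tell the hairpins apart. The hairpins are shown with both mature arms in capitals.
Mir29b-1: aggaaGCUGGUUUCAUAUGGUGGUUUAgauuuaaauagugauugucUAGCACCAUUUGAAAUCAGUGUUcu
Mir29b-2: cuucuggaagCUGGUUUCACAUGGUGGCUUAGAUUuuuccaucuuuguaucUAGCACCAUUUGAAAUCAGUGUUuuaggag

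The libraries differed in depth and in signs of their source. The B16 cell library had 7925726 listed miRNA reads, the B16 exosome library 45677 and the JB6 exosome library 4495956, and no count from 1 to 9 occurs in the tables. A listed 0 was therefore taken as at most 9 reads, or 1.14, 197 and 2.002 RPM, where RPM is the count times 1000000 over the listed miRNA reads of the library. Of 4 melanocyte markers, B16 cells listed 3, their exosomes 2 and JB6 exosomes 2, with 0.574%, 0.578% and 0.0782% of the reads. Most of these reads were of 1 marker, miR-146a-5p: 24373 of 45513 in B16 cells, 181 of 264 in B16 exosomes and 3504 of 3518 in JB6 exosomes. The share of miR-211-5p in B16 exosomes was 0.683 of that in B16 cells (0.544 to 0.847). miR-211-5p was at 0 in JB6 exosomes, miR-204-5p in B16 exosomes and miR-137-3p in every library. The 5 fibroblast and mesenchymal markers held 3.83%, 8.06% and 3.46%, and miR-214-3p was at 0 in both B16 libraries. In this set miR-143-3p alone gave 285130 of 303834 reads in B16 cells and 3478 of 3680 in B16 exosomes. Of 5 epidermal and epithelial markers, 3 were listed in B16 cells, none in B16 exosomes and 2 in JB6 exosomes, where they summed to 35 reads and miR-205-5p, miR-200c-3p and miR-141-3p were at 0. The JB6 exosome library held 25.2% of its reads in the liver markers miR-122-5p and miR-192-5p, against 0.0576% in B16 cells and 0.0963% in B16 exosomes. Of these liver reads miR-192-5p gave 5492 of 1135014 in JB6 exosomes, 4145 of 4566 in B16 cells and 20 of 44 in B16 exosomes. The share of miR-122-5p was 9.89-fold higher in B16 exosomes than in B16 cells (6.27 to 14.9), with 24 and 421 reads. The JB6 exosome library also held 0.748% in 3 listed red-cell markers and 0.371% in 3 listed muscle markers. B16 exosomes listed none of either set. Endothelial miR-126a-3p held 0.119%, 0.0876% and 0.0404%, and leukocyte markers at most 57 reads. The part of these other sources in the miR-29 values was not tested.

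miR-29a-3p was the member seen in all 3 libraries. The cells gave 29522 reads of it, their exosomes 85 and the JB6 exosomes 1685. As levels these were 3725 RPM (3683 to 3767), 1861 RPM (1487 to 2301) and 374.8 RPM (357.1 to 393.1). By share of listed reads the order was B16 cells, B16 exosomes, JB6 exosomes, and no interval overlapped its neighbour. But the order of the exosome libraries turned with DESeq2 size factors and the authors' totals, and with TMM factors the interval of their ratio held 1. By rank miR-29a-3p was number 35 of the 559 miRNAs listed for the cells, 56 of the 149 for their exosomes and 84 of the 389 for JB6 exosomes.

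The other members were seen in B16 cells only, at the depth of each library. miR-29b-3p had 2258 reads in B16 cells, 284.9 RPM (273.3 to 296.9), and was listed at 0 in both exosome libraries. miR-29b-1-5p had 63 reads, 7.95 RPM (6.11 to 10.2), and 0 in both. miR-29c-3p had 51 reads, 6.43 RPM (4.79 to 8.46), and 0 in both. A listed 0 is not an absence: it allows up to 197 RPM in B16 exosomes, which is above the cell level of miR-29c-3p and of miR-29b-1-5p and below that of miR-29b-3p. In JB6 exosomes it allows 2.002 RPM, which is below the cell level of all 4 members.

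**Figure D1:**
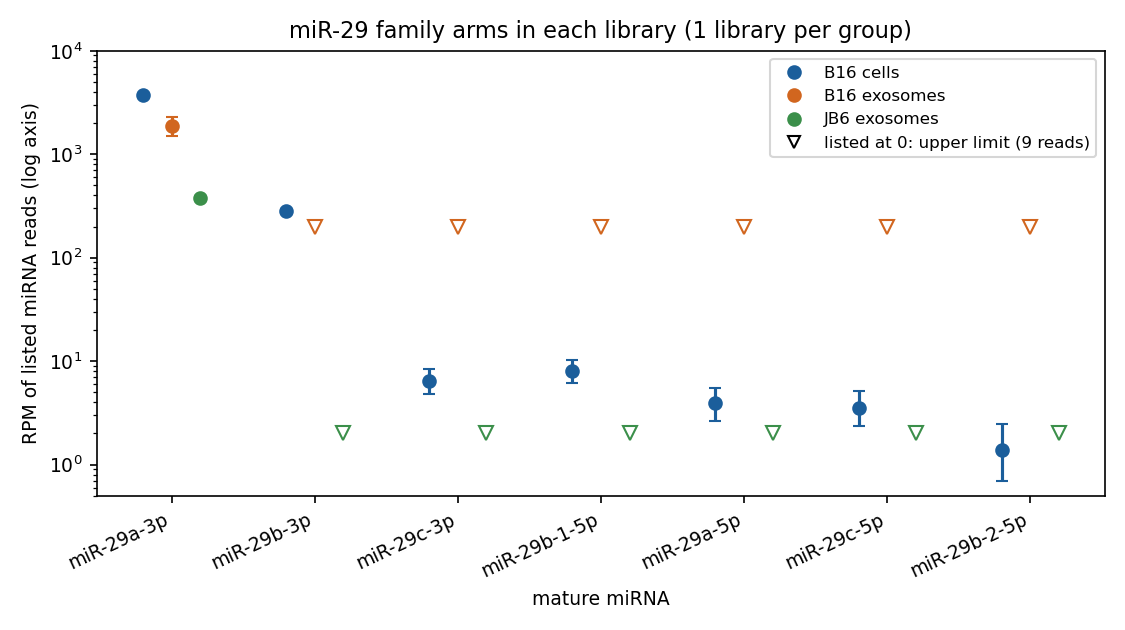
Level in RPM of listed miRNA reads (log axis) of the 7 arms of the miR-29 hairpins in the 3 libraries, with points and exact 95% counting intervals where listed and open triangles at the 9-read upper limit where listed at 0. miR-29a-3p was listed in all 3 libraries, and the other 6 arms in B16 cells only.

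Within B16 cells the family was made up almost wholly of miR-29a-3p. It held 92.7% of the 31831 reads of the 3p strands (92.5 to 93.0), miR-29b-3p held 7.09% (6.81 to 7.38) and miR-29c-3p 0.160% (0.119 to 0.211). miR-29a-3p had 13.1 reads for each read of miR-29b-3p (12.5 to 13.7), although miR-29b-3p can come from 2 hairpins. miR-29b-3p had 35.8 times the reads of miR-29b-1-5p (27.9 to 46.8). miR-29b-1-5p and miR-29c-3p, next to each other in the order, did not differ beyond counting error, at a ratio of 1.24 (0.840 to 1.82). The dominance of 1 member was common: among 45 seeds of matched miRNAs with at least 2 listed miRNAs and at least 100 reads in B16 cells, the leading miRNA held a median of 80.0% of the reads, and 14 seeds had a higher value than miR-29.

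The opposite arms were scarce, with 1 exception. miR-29a-5p, the passenger strand of miR-29a, had 31 reads in B16 cells, or 0.105% of the reads of that hairpin (0.0713 to 0.149). Among 140 hairpins with both arms listed and at least 30 reads in B16 cells, the minor arm held a median of 7.97% and 6 hairpins had a lower value than miR-29a. miR-29b-1-5p had 27.9 reads per 1000 reads of miR-29b-3p (21.4 to 35.8) and miR-29b-2-5p had 4.87 (2.43 to 8.73), with 63 and 11 reads, a ratio between the 5p arms of 5.73 (2.99 to 12.1). The arm of the chromosome 6 hairpin was thus listed more often than that of the chromosome 1 hairpin. For miR-29c the arms were closer: miR-29c-5p had 28 reads beside the 51 of miR-29c-3p, or 35.4% of the hairpin's reads (25 to 47). The 51 reads depend on the uncertain split between miR-29a-3p and miR-29c-3p, which this interval leaves out. In the exosome libraries no 5p arm was listed. At the arm balance of B16 cells miR-29a-5p would have given 0.0893 reads in B16 exosomes and 1.77 in JB6 exosomes, so the balance could not be read there.

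B16 exosomes were set against B16 cells to ask whether the family is over- or under-represented in the vesicles of the melanoma line. The share of miR-29a-3p was 0.4996 of that in the cells (0.399 to 0.618). At the cell level the exosome library would have held 170 reads in place of 85. A miRNA with at least 30 reads over the pair of libraries was called lower or higher where its shares differed by 2-fold or more and the interval excluded 1. miR-29a-3p met that rule as lower by a narrow margin, at 2.002-fold, and its interval reached 1.62-fold. Of the 4 members 1 was lower, none was higher and 3 were not resolved. Of all 422 miRNAs tested 7.82% were lower and 8.53% higher, and 63.3% were not resolved because of a listed 0. With TMM factors 22.0% were lower and 3.79% higher, and with the authors' totals 60.9% and 2.13%. Among the 144 listed in both libraries the median log2 ratio was 0.03, and 22 had a lower ratio than miR-29a-3p. The 144 leave out every miRNA with a listed 0, and they hold 23 of the 33 called lower and 35 of the 36 called higher. TMM factors, authors' totals and other scalings shift every ratio alike: without the 10 most abundant miRNAs in the totals the ratio was 0.521 and was not called, and under the authors' totals it was 0.0296.

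miR-29b-3p was not resolved in B16 exosomes. At its cell share the library would have held 13.01 reads, just above the smallest count that the tables list, and the ratio was at most 0.692, with a counting interval around that limit of 0.316 to 1.32. With TMM factors or the authors' totals the limit fell to 0.341 and 0.0410 and met the rule. Relative to miR-29a-3p, a comparison within the library that needs no scaling, the expectation was 6.501 reads, which is under 10, so the listed 0 does not bear on whether the make-up of the family differed between B16 cells and their exosomes. miR-29c-3p and miR-29b-1-5p would have given 0.294 and 0.363 reads at their cell shares and could not have been seen. Of the other miRNAs within 2-fold of miR-29b-3p in the cells, 24 of 52 (46.2%) were also listed at 0 in B16 exosomes.

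JB6 exosomes were set against B16 cells, a comparison of deep libraries in which cell line, strain, disease state and compartment all differ and cannot be told apart. It shares the B16 cell library with the comparison above. miR-29a-3p was 9.94-fold lower in JB6 exosomes (9.46 to 10.4), a log2 ratio of -3.31. miR-29b-3p, with 2258 reads against a listed 0, came out at least 142-fold lower, or 74.8-fold at the end of the counting interval nearest to 1. At its cell share JB6 exosomes would have held 1281 reads. For miR-29b-1-5p the limit was at least 3.97-fold lower and for miR-29c-3p at least 3.21-fold, where the cell shares predict 35.7 and 28.9 reads, and the nearest interval ends were 1.96-fold and 1.57-fold.

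All 4 members were thus lower in JB6 exosomes by the rule, but so were 60.7% of the 501 miRNAs tested, with 26.1% higher, and the median log2 ratio of the 305 listed in both was -1.47. Of those 305, 87 had a lower ratio than miR-29a-3p. The 305 leave out every miRNA with a listed 0, and they hold 167 of the 304 called lower and 83 of the 131 called higher. With DESeq2 size factors 26.7% of miRNAs were lower and 40.7% higher, and the ratio of miR-29a-3p was 0.601, within 2-fold. TMM factors gave 40.3% and 32.9%. The call for miR-29b-3p was met under all 11 settings tried, at no less than 23.8-fold lower, while that for miR-29b-1-5p was met in 7 of 11 and that for miR-29c-3p in 5 of 10. These settings include the shares of listed reads and 1 setting chosen after the data were seen. In that added setting, with the markers of liver, muscle, red cells, leukocytes and endothelium left out of the totals, every log2 ratio of this comparison moved by 0.44 and all 4 members were still lower.

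**Figure D2:**
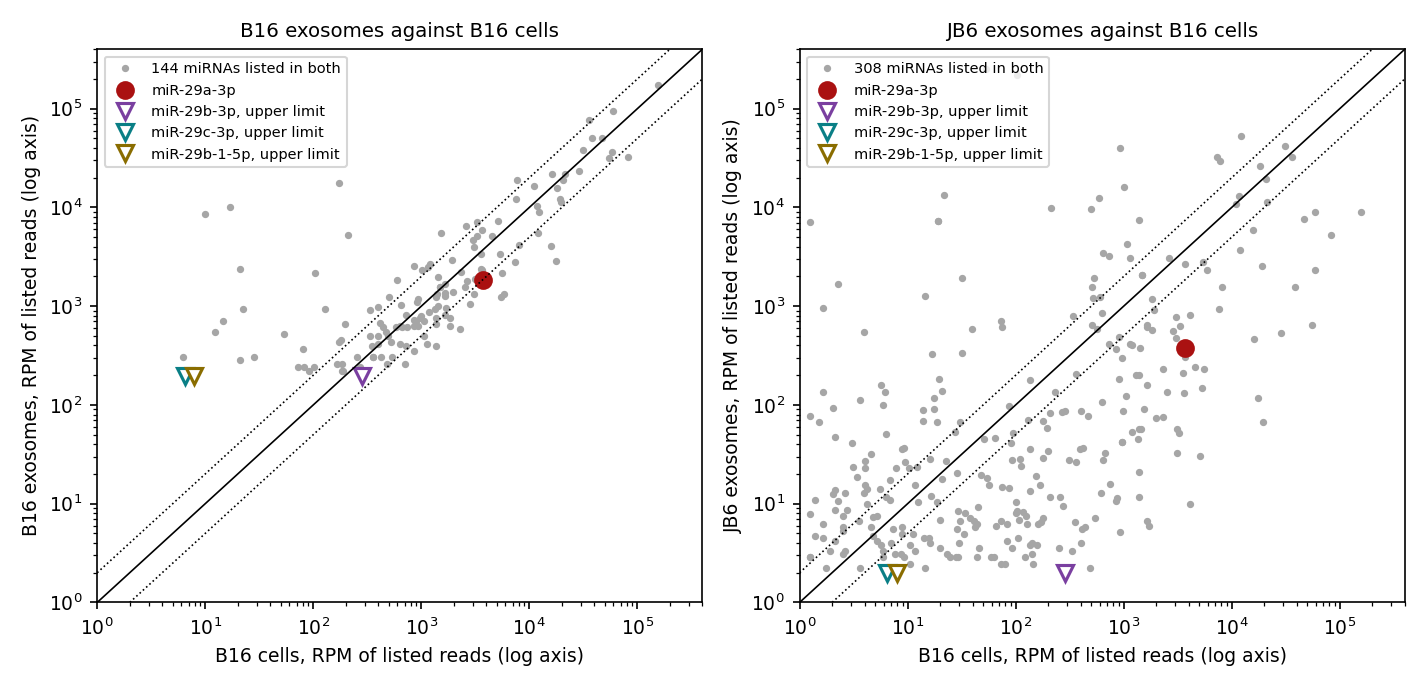
Levels in RPM of listed reads (log axes) of all miRNAs listed in both libraries (grey) and of the 4 miR-29 members, for B16 exosomes (left) and JB6 exosomes (right) against B16 cells. The solid line marks equal shares and the dotted lines 2-fold. miR-29a-3p lies on the lower 2-fold line at left and 9.94-fold below equality at right, where miR-29b-3p, drawn at its upper limit, lies at least 142-fold below.

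The make-up of the family could be compared between JB6 exosomes and B16 cells for miR-29b-3p. In B16 cells there were 76.5 reads of miR-29b-3p per 1000 reads of miR-29a-3p (73.2 to 79.8). In JB6 exosomes there were at most 5.34, since 9 reads or fewer stood beside 1685 of miR-29a-3p. At the ratio of the cells 129 reads would have been counted. miR-29b-3p per read of miR-29a-3p was therefore at least 14.3-fold lower in JB6 exosomes, and 7.51-fold at the nearest end of the counting interval, with no dependence on the scaling between libraries. In B16 exosomes the limit was 106 reads per 1000, above the value in the cells. For miR-29c-3p and miR-29b-1-5p the ratios of the cells, 1.73 (1.29 to 2.27) and 2.13 (1.64 to 2.73) per 1000, predict 2.91 and 3.60 reads in JB6 exosomes, below what the tables list. Their listed 0 there is no more than the lower level of miR-29a-3p would give.

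**Figure D3:**
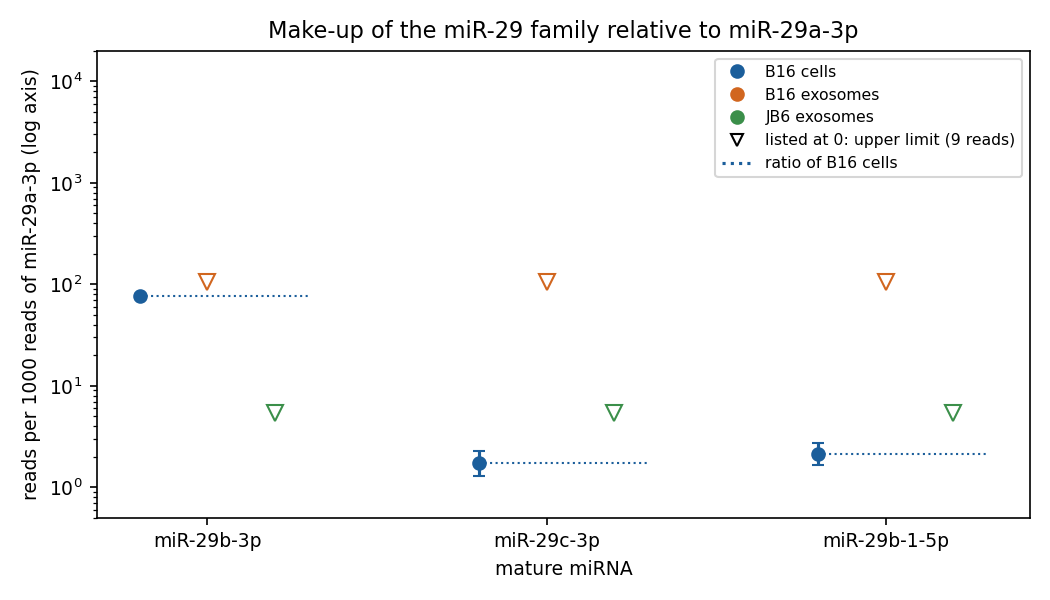
Reads of miR-29b-3p, miR-29c-3p and miR-29b-1-5p per 1000 reads of miR-29a-3p in the same library (log axis), with exact 95% counting intervals for B16 cells and open triangles at the 9-read upper limit for the exosome libraries. Only the JB6 exosome limit for miR-29b-3p, 5.34, lies below the dotted line that carries over the ratio of B16 cells, 76.5.

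A change in the balance between miRNAs of 1 seed was common between these libraries. In each same-seed pair a miRNA was set against the most abundant RefSeq-matched miRNA of its seed in B16 cells. In all, 44 pairs were predicted to give at least 20 reads and could be evaluated. Of these, 34.1% were at least 2-fold lower in JB6 exosomes and 25% at least 2-fold higher. miR-29b-3p per miR-29a-3p was the fourth lowest of the 44, counted at its limit. The pairs cover only miRNAs matched to a RefSeq sequence. miR-199b-3p and miR-199a-3p had equal counts in B16 cells and JB6 exosomes, as did let-7c-2-3p and let-7a-1-3p, so their ratio was fixed at 1. The miR-199 pair is also among the 26 pairs of B16 exosomes. In the miR-26 family, known for restraint of the chromatin enzyme Ezh2, miR-26b-5p per miR-26a-5p was 1.82-fold lower in JB6 exosomes. In the miR-15/16 family, a brake on the cell cycle, miR-15b-5p per miR-16-5p was 9.58-fold lower, on 10 reads. In the miR-30 family miR-30c-5p per miR-30a-5p was 6.24-fold lower. The most abundant miR-30 member in B16 cells, miR-30d-5p with 652141 reads, had no RefSeq match and is not among the pairs. In B16 exosomes, where 26 pairs could be evaluated and miR-29 could not, 26.9% were lower and 3.85% higher.

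**Figure D4:**
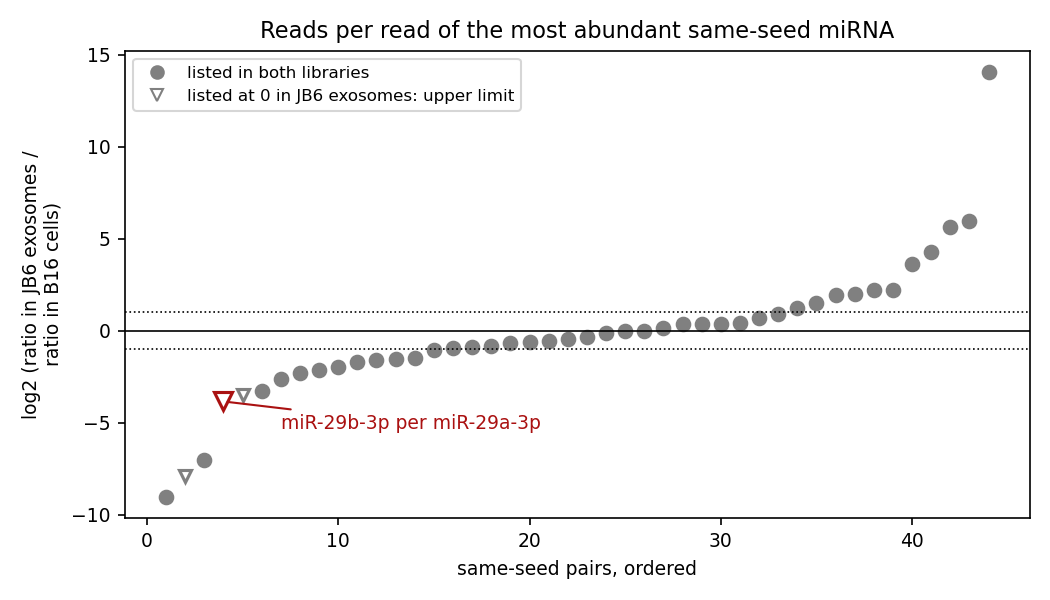
For 44 same-seed pairs, the log2 of a ratio in JB6 exosomes over that ratio in B16 cells, in rising order. The ratio is reads per read of the most abundant RefSeq-matched miRNA of the seed in B16 cells. Dotted lines mark 2-fold and open triangles mark upper limits. miR-29b-3p per miR-29a-3p (red) is the fourth lowest, at least 14.3-fold lower.

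B16 exosomes were set against JB6 exosomes to ask how vesicles of a melanoma line and of a normal skin line differ. This comparison shares its libraries with those above. The share of miR-29a-3p was 4.97-fold higher in B16 exosomes (3.95 to 6.18), with 85 reads where the JB6 level predicts 17.1. The other 3 members were listed at 0 in both libraries and no ratio was computed. Of 300 miRNAs tested 31.3% were higher and 11.7% lower, and the median log2 ratio of the 131 listed in both was 2.62, above the 2.31 of miR-29a-3p. So miR-29a-3p was higher as a share of reads and close to the middle of the miRNAs listed in both, with 60 of 131 below it. These 131 hold 88 of the 94 called higher and 18 of the 35 called lower. The direction depended on the scaling. The ratio was 0.962 with TMM factors (0.764 to 1.20), 0.762 with DESeq2 size factors (0.605 to 0.947) and 0.335 with the authors' totals (0.266 to 0.416). Only the last met the rule, as lower. Under these scalings the higher and lower percentages of all miRNAs were 20.3 and 32.3, 19.0 and 36.3, and 13.3 and 51.0.

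**Figure D5:**
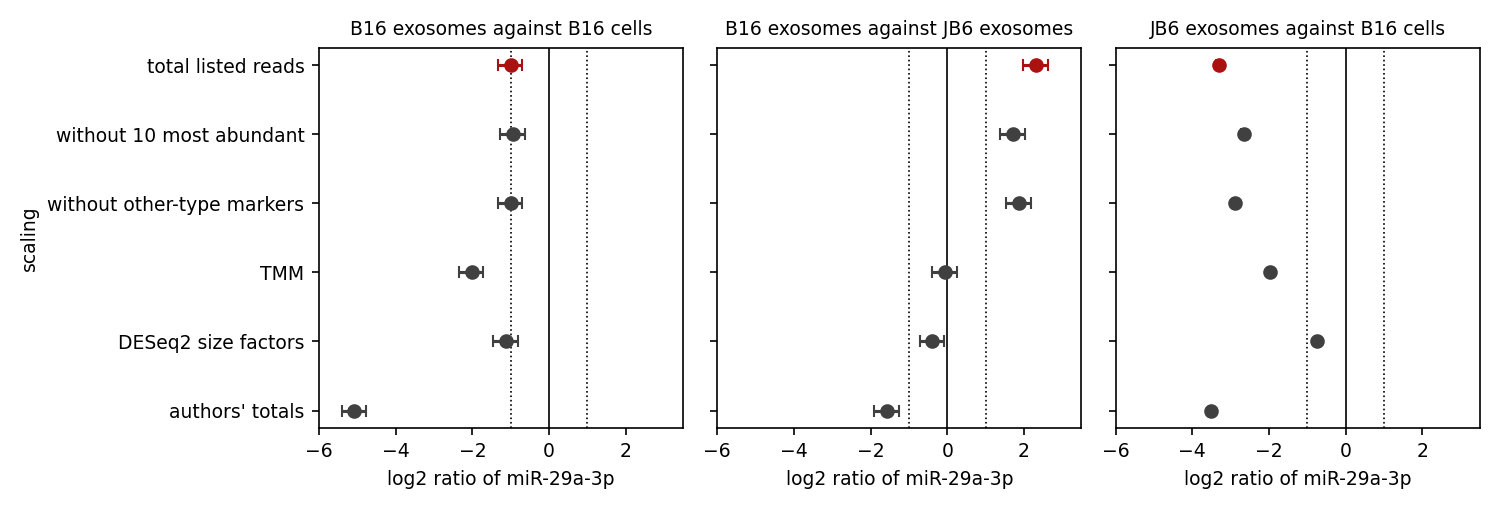
Log2 ratio of miR-29a-3p in the 3 comparisons under 6 scalings, with exact 95% counting intervals. Dotted lines mark 2-fold, and the red point is the ratio of shares of listed reads. The ratio stays below 0 in both comparisons with B16 cells and crosses 0 between the exosome libraries.

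The summed 3p strands of miR-29 held 0.402% of the listed reads of the cells (0.397 to 0.406), 0.186% of those of B16 exosomes (0.149 to 0.230) and 0.0375% of those of JB6 exosomes (0.0357 to 0.0393). Of the families set beside it, miR-30 took 14.3% in the cells, 8.92% in their exosomes and 0.699% in those of JB6, miR-26 took 1.95%, 2.87% and 0.0518%, and miR-15/16 took 0.196%, 0.296% and 0.00589%. As shares of listed reads, miR-29 and miR-30 were lower in B16 exosomes than in B16 cells, at ratios of 0.463 and 0.624, while miR-26 and miR-15/16 were higher there, at 1.47 and 1.51. With TMM factors or the authors' totals all 4 families were lower in the exosomes. By shares all 4 were lowest in JB6 exosomes. The order of the exosome libraries turned for miR-29 with DESeq2 size factors and the authors' totals. With TMM factors the miR-29 ratio of B16 over JB6 exosomes was 0.962. For miR-30 the order turned with the authors' totals, at a ratio of 0.860.

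Among 131 other miRNAs listed in all 3 libraries with at least 100 reads in sum, the pattern over the libraries was most like that of miR-29a-3p for miR-185-5p, miR-191-5p and let-7a-5p. Likeness was the Euclidean distance between log2 shares, each centred on its own mean, over 3 libraries only, and it was 0.213, 0.262 and 0.313. miR-191-5p was also close in level, with 3702 RPM in the cells, 1948 RPM in their exosomes and 307.4 RPM in those of JB6. No such search was possible for the members listed in 1 library.

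miRNAs known from the processes that miR-29 acts on were followed as 2 lists. Of 10 miRNAs linked to fibrosis, 8 could be tested between B16 exosomes and B16 cells: miR-30c-5p and let-7d-5p were lower, miR-199a-5p was higher, 3 met neither call and 2 were not resolved, with a median log2 ratio of -0.47 over the 6 listed in both against 0.03 over all miRNAs. These were 2 of 8 lower and 1 higher beside 7.82% and 8.53% of all miRNAs. The counts became 4 and 1 with TMM factors, beside 22.0% and 3.79% of all miRNAs. With the authors' totals they were 6 and 0, beside 60.9% and 2.13%. The call of miR-199a-5p rests on 13 reads in B16 exosomes. miR-21a-5p, which is raised in many fibrotic tissues, had a ratio of 0.621 (0.592 to 0.652). Between JB6 exosomes and B16 cells 4 of 9 were lower and 3 higher, beside 60.7% and 26.1% of all miRNAs, with a median of -1.07 over 8 against -1.47. With TMM factors 3 were lower and 4 higher, beside 40.3% and 32.9% of all miRNAs. With DESeq2 size factors 2 were lower and 6 higher, beside 26.7% and 40.7%. By shares miR-21a-5p was 6.55-fold lower (6.49 to 6.62). Between the exosome libraries 4 of 8 were higher in B16 exosomes and 1 was lower, beside 31.3% and 11.7% of all miRNAs, with a median of 1.54 over 6 against 2.62. This split turned with the scaling, to 1 higher and 4 lower with TMM factors or DESeq2 size factors and to 0 and 5 with the authors' totals. Under these 3 scalings the higher and lower percentages of all miRNAs were 20.3 and 32.3, 19.0 and 36.3, and 13.3 and 51.0.

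Of 9 miRNAs known for chromatin and DNA methylation enzymes, 8 could be tested between B16 exosomes and B16 cells. None was lower, and miR-148a-3p, miR-26b-5p and miR-138-5p were higher, with a median log2 ratio of 0.66 over the 8 against 0.03 over all miRNAs listed in both, where 8.53% were higher and 7.82% lower. With TMM factors 1 was higher and 1 lower, beside 3.79% and 22.0% of all miRNAs. With the authors' totals none was higher and 7 were lower, beside 2.13% and 60.9%. The call of miR-138-5p by shares rests on 10 reads in B16 exosomes, the smallest count that is listed. miR-101a-3p, which targets Ezh2, had a ratio of 1.20 (0.888 to 1.58). In JB6 exosomes against B16 cells 7 of 8 were lower and 1 higher, beside 60.7% and 26.1% of all miRNAs, with a median of -3.03 over the 7 listed in both against -1.47. The higher one was miR-148a-3p, known to target Dnmt3b. With DESeq2 size factors 4 were lower and 1 higher, beside 26.7% and 40.7% of all miRNAs. Between the exosome libraries 6 of 7 were higher in B16 exosomes and miR-148a-3p was lower, beside 31.3% and 11.7% of all miRNAs, with a median of 3.72 against 2.62. The counts were 4 higher and 1 lower with TMM factors or DESeq2 size factors, and 2 and 2 with the authors' totals. Under these 3 scalings the higher and lower percentages of all miRNAs were 20.3 and 32.3, 19.0 and 36.3, and 13.3 and 51.0. The scalings of both lists were added after the data were seen.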

How the data were processed

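Small RNA of 3 libraries, 1 per group, was analysed, with groups taken from the labels. The deposited counts are reads per mature miRNA, and the deposited RPM values equal the count times a constant per library, per the file headers and the values. The RPM totals of the authors are 8721363, 847694 and 5626936 reads for B16 cells, B16 exosomes and JB6 exosomes, and no source used here says what they count. bcl2fastq, BWA and mm10 are named, per the submitters' processing notes. The sources used here state no tool versions, miRNA annotation, strand settings or handling of multiply matching reads.

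Shares of listed miRNA reads were compared with exact conditional binomial (Clopper-Pearson) intervals in SciPy 1.17.1, over all miRNAs with 30 or more reads. The interval code was tested on data simulated with counting error alone, for miRNAs with at least 10 reads in both libraries. Limits from a listed 0 were not part of that test. No source names molecular identifiers, so reads may repeat the same molecule, which the intervals leave out. A listed 0 was set to 9 reads and gives a limit. With 1 library per group no p-value was computed. TMM factors came from edgeR 4.0.16 and size factors from DESeq2 1.42.0, over 132 miRNAs listed in all libraries. Seeds came from RefSeq, matched by name for 1623 of 1915 miRNAs, and gene overlaps from GENCODE M21, both on GRCm38. Named miRNAs were the members, the other arms of their hairpins, the 3 nearest patterns and members of the lists and families shown. The members and lists were chosen with earlier results of these data known.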

Additional observations from a re-analysis of the deposited data

How the results depend on the processing

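Counts of members meeting the rule depended on scaling and on the treatment of a listed 0. For B16 exosomes against B16 cells 1 member was lower, against 2 with TMM factors, the authors' totals or a listed 0 set to 1 read, and 0 without the 10 most abundant miRNAs or when the interval itself had to lie beyond 2-fold. Of all miRNAs tested 7.82% were lower by shares, 22.0% with TMM factors, 60.9% with the authors' totals and 7.35% without the 10 most abundant. Between the exosome libraries 1 was higher, against 0 with TMM factors, DESeq2 size factors or the authors' totals, where 1 was lower. Of all miRNAs tested 31.3% were higher by shares, 20.3% with TMM factors and 19.0% with DESeq2 size factors. With the authors' totals 13.3% were higher and 51.0% lower. The ratio of miR-29a-3p between the exosome libraries became 0.962 with TMM factors (0.764 to 1.20) and 0.762 with DESeq2 size factors (0.605 to 0.947), and neither was called. With the authors' totals it reversed to 0.335 (0.266 to 0.416). For JB6 exosomes against B16 cells 4 were lower, against 2 with TMM factors, a minimum of 100 reads or the interval beyond 2-fold, 3 without the 10 most abundant miRNAs, and 1, miR-29b-3p, with DESeq2 size factors. Of all miRNAs tested 60.7% were lower by shares, 40.3% with TMM factors, 51.3% without the 10 most abundant and 26.7% with DESeq2 size factors. No share over all miRNAs was computed for the settings that leave the scaling as it was. The summed 3p strands, at 4016, 1861 and 374.8 RPM in B16 cells, B16 exosomes and JB6 exosomes, came to 9877, 4772 and 1462 RPM without the 10 most abundant miRNAs and to 3650, 100.3 and 299.5 RPM by the authors' totals. With a listed 0 at 9 reads miR-29a-3p held at least 82.5% of the 3p reads in B16 exosomes and 98.9% in JB6 exosomes, 97.7% and 99.9% with a listed 0 at 1 read, and 91.3% and 99.5% when summed with miR-29c-3p. The 45677 reads of B16 exosomes limit what can be seen there of every member but miR-29a-3p. No paired analysis was possible because each group holds 1 library.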

Other observations

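The AGUGUU hexamer of miR-29b-3p can be followed through the other miRNAs that hold it, which are few. Of the 12 miRNAs that hold it, B16 cells listed 4, their exosomes 1 and JB6 exosomes 3. Of all 1915 miRNAs, matched to RefSeq or not, these libraries listed 559, 149 and 389. The counts among the 12 include miR-29b-3p itself, which was listed in B16 cells only. Apart from it, JB6 exosomes listed as many of the 12 as B16 cells did. miR-92b-5p, the other miRNA that ends in the hexamer, had 22 reads in the cells, 0 in their exosomes and 39 in those of JB6. miR-199a-5p, which holds it within its sequence, had 165, 13 and 616 reads. Of the 52 other miRNAs within 2-fold of miR-29b-3p in B16 cells, 10 (19.2%) were listed at 0 in JB6 exosomes. These are values of single libraries with no test.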
